A study of Mus musculus with 3 samples.

Results

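The 10 genes of the perineuronal and diffuse brain matrix were followed in 3 RNA sequencing libraries from the midbrain of C57BL/6 mice on postnatal day 3. They are the hyaluronan-binding chondroitin sulphate proteoglycans (lecticans) Acan, Bcan, Ncan and Vcan, the link protein genes Hapln1, Hapln2 and Hapln4, the tenascin genes Tnc and Tnr, and the receptor phosphatase gene Ptprz1. The members were chosen by symbol, with 1 row each among the 49585 genes listed, and all 10 had enough reads to be tested. One library came from a wild-type (WT) animal or pool of animals and 2 from mice whose genotype is recorded as FGR, letters that the labels do not expand. All 3 libraries share strain, age and tissue. Neither how the FGR state was produced nor how many animals stand behind a library is given. The comparison asks how these matrix genes, early and late, differed between FGR and WT midbrain.

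Lecticans are core proteins that carry chondroitin sulphate chains. They bind hyaluronan at one end, an attachment that link proteins stabilise, and tenascins at the other. Brain matrix changes in composition as it matures. Neurocan, versican and tenascin-C dominate the loose juvenile matrix, and aggrecan, brevican, tenascin-R and the brain link proteins gather later, around perineuronal nets and at nodes of Ranvier. On that textbook basis Ncan, Vcan and Tnc were taken here as the 3 juvenile members and Acan, Bcan, Tnr, Hapln2 and Hapln4 as the 5 adult members. Hapln1 serves cartilage, young brain and adult nets, and Ptprz1 encodes both a receptor of glial precursors and its secreted form phosphacan, so these were put in neither group. Some splice forms of Vcan belong to the adult matrix, and gene counts do not separate them.

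The WT library held 52874311 counts, and FGR replicates 1 and 2 held 58444481 and 46240262. Xist, the RNA of the inactive X chromosome, had 29129 counts in WT and 34285 and 78 in FGR replicates 1 and 2, and 4 Y-linked genes together had 0, 9 and 9404. FGR replicate 1 therefore had the sex-linked profile of WT, and FGR replicate 2 did not. Markers of the labelled midbrain were present, but the libraries differed in regional markers. Summed CPM (counts per 1000000 counts of the TMM-scaled library) of 12 hypothalamic and ventral forebrain genes was 57.3 in WT and 8.47 and 9.21 in FGR, and that of 10 hindbrain genes was 8.40 in WT and 49.7 and 42.2 in FGR. Nkx2-4 and Oxt of the first list were at 0 counts in both FGR libraries, and Hoxb2 and Hoxa3 of the second in WT. The part of these regional differences in the matrix results was not tested. Because WT is a single library, its litter, dissection or preparation and its genotype cannot be told apart. In whole tissue, fewer cells of a type and less RNA per cell cannot be told apart either.

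At this age the matrix transcripts were dominated by Ncan, Bcan, Ptprz1 and Tnc, while the link proteins and Acan lay above at most 23.7% of the genes tested. Levels between genes are given per length, as RPKM (CPM divided by the deposited length in kilobases, after TMM scaling). Ncan stood first in every library, at 98.4 RPKM in WT and at 80.0 and 76.0 RPKM in FGR replicates 1 and 2, above at least 98.0% of the genes tested. Bcan and Ptprz1 followed close together, and their order depended on the library. The Bcan level was 1.03 times that of Ptprz1 in WT but 0.951 and 1.04 times in the FGR pair, so the order of this pair does not hold across libraries. Tnc came next in all 3 libraries, then Vcan and Tnr, with a Vcan to Tnr ratio of 1.15 in WT and of 1.30 and 1.69 in the FGR pair. A gap of at least 10.6-fold separated Tnr from Hapln1, the highest of the rare members.

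Below that gap Hapln1, Hapln4, Acan and Hapln2 all lay between 0.235 and 0.603 RPKM. Their counting intervals overlapped in at least 1 library for each neighbouring pair. Acan was the 8th of 10 in WT and the last in both FGR libraries. Hapln2 was the last in WT and the 9th and 8th in FGR replicates 1 and 2. The juvenile members were thus all among the 5 most abundant, and of the adult members Bcan alone was.

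**Figure D1:**
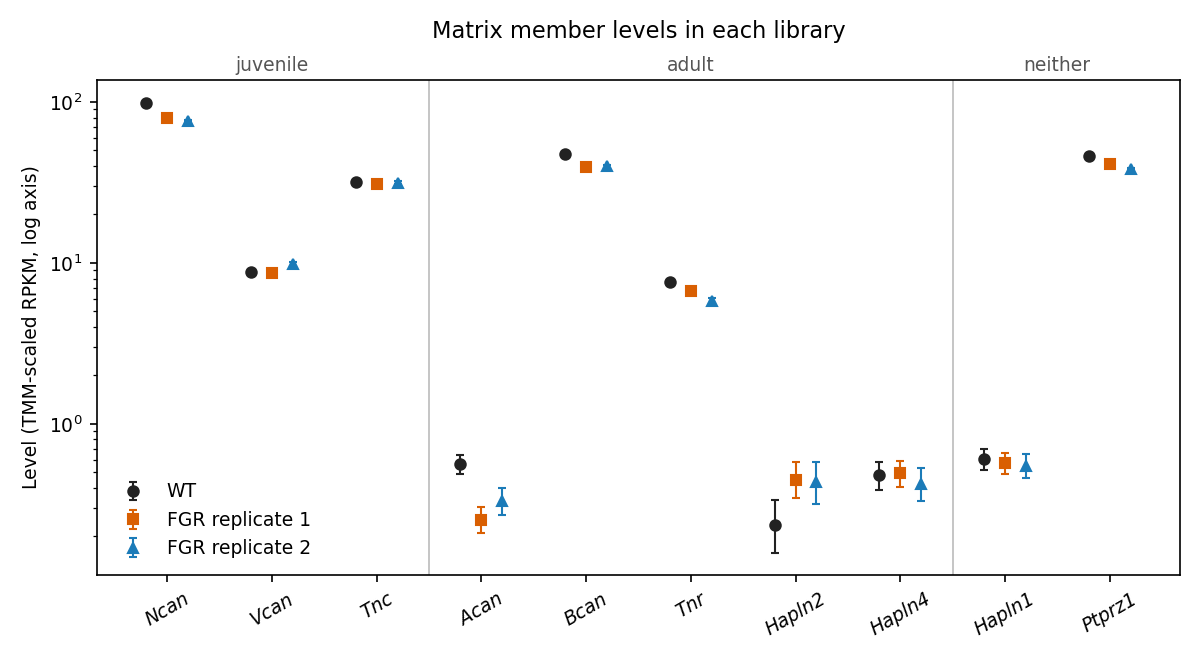
Length-scaled level of each member in each library (TMM-scaled RPKM, log axis), with exact 95% Poisson intervals that cover counting error alone. Ncan lies between 76.0 and 98.4 RPKM and the link proteins and Acan below 0.603 RPKM, and Acan is lower and Hapln2 higher in both FGR libraries than in WT.

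Among the lecticans, Acan, which encodes aggrecan, the main proteoglycan of perineuronal nets, was the member that fell. Acan (ENSMUSG00000030607.7) was read 226 times in WT, 110 times in FGR replicate 1 and 113 times in FGR replicate 2, which gave 4.20, 1.90 and 2.47 CPM. Both FGR libraries lay below WT, and their 95% counting intervals (0.209 to 0.306 and 0.273 to 0.398 RPKM) did not reach that of WT (0.491 to 0.640 RPKM). The log2 fold change was -0.95 ± 0.21 (SE), a 1.93-fold fall, with an adjusted p of 0.0225 by edgeR's quasi-likelihood test. The adjusted p was 0.338 in DESeq2 and 0.0873 when genes below a mean CPM of 1 were left out, so the call was lost in both. Against WT, FGR replicate 2 alone gave -0.76 and FGR replicate 1 alone gave -1.13.

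Ncan, which encodes neurocan of the juvenile matrix (ENSMUSG00000002341.8), reached 707.9 CPM in WT, against 575.2 and 546.6 CPM in the FGR pair, whose mean was 560.9 ± 20.2 (SD, n = 2). Both FGR libraries were lower than WT by more than they differed from each other. The log2 fold change was -0.34 ± 0.10, with an adjusted p of 0.0769, short of the threshold of 0.05. DESeq2 called this gene (adjusted p = 0.00570), as did limma-voom (0.0107), the robust fit (0.0430) and the fit to every gene with a count (0.00393).

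Bcan, which encodes brevican, a lectican of astrocytes and the node of Ranvier (ENSMUSG00000004892.13), stood at 193.8 CPM in WT, against 159.8 and 162.3 CPM in the FGR pair (161.1 ± 1.76). The FGR libraries nearly coincided, below WT. Its log2 fold change was -0.27 ± 0.07 with an adjusted p of 0.0545, and alternatives gave adjusted p-values from 0.00779 to 0.103. Vcan, which encodes versican, a large lectican of oligodendrocyte precursors and loose matrix (ENSMUSG00000021614.16), stood at 126.4 CPM in WT, against 125.9 and 142.4 CPM in the FGR pair. WT lay between the FGR libraries, so the groups overlapped (log2 fold change 0.09 ± 0.08, adjusted p = 0.642).

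Acan, the member with a call, and Ncan, the most abundant one, differ in the sequence around their starts. The windows run from 250 bases before to 50 bases after the RefSeq start, 5′ to 3′ on the gene's own strand, in build GRCm38.p6. The build used for the counts is not given in the sources used here. Capitals mark matches on either strand to the GC box GGGCGG, the CCAAT box CCAAT or the TATA box TATAAA. The Acan window is chr7:79052976-79053275 on the + strand and the Ncan window chr8:70120795-70121094 on the - strand.
Acan: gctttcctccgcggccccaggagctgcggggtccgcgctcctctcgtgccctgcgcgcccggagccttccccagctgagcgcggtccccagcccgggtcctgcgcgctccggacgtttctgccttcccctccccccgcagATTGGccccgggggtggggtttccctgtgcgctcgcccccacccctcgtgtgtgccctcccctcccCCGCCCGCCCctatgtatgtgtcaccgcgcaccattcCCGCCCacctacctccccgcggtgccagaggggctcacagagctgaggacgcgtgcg
Ncan: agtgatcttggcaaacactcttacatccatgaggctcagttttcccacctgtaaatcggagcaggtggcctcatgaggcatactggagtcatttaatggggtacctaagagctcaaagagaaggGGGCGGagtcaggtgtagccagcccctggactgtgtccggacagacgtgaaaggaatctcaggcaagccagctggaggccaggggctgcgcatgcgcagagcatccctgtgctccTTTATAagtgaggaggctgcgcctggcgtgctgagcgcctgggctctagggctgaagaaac
The Acan window held 3 matches to the GC box (a pair of them overlapping), 1 to the CCAAT box and 0 to the TATA box, with 74.0% G or C. In the Ncan window there were 1 match to the GC box, 0 to the CCAAT box and 1 to the TATA box, with 56.7% G or C. Of all 32851 RefSeq windows of this length, 35.7% held the GC box, 37.4% the CCAAT box and 13.6% the TATA box, and the median G or C content was 52.7%. A match is a description of the letters, and binding was not measured. Windows were found for 9 of the 10 members.

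Of the tenascins, which cross-link lecticans, the juvenile gene stood at nearly the same level in every library and the adult gene was lower in both FGR libraries without passing the test. Tnc (ENSMUSG00000028364.15), which encodes tenascin-C of radial glia and young astrocytes, measured 247.0 CPM in WT, against 240.8 and 245.2 CPM in the FGR pair. The FGR libraries were close to WT, just below it (log2 fold change -0.02 ± 0.08, adjusted p = 0.919). Tnr (ENSMUSG00000015829.13), which encodes tenascin-R of the oligodendrocyte lineage and nets, measured 97.7 CPM in WT, against 86.5 and 74.9 CPM in the FGR pair (80.7 ± 8.21). The log2 fold change was -0.27 ± 0.08 (adjusted p = 0.0678), with -0.39 for FGR replicate 2 alone and -0.18 for FGR replicate 1 alone. Tnr was called in 3 of 9 fits. The ratio of Tnc to Tnr per length was 4.19 in WT and 4.61 and 5.42 in the FGR pair. Both FGR ratios exceeded that of WT, and the gap between them was wider than that between WT and the nearer one.

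Ptprz1 (ENSMUSG00000068748.7), whose secreted product phosphacan binds tenascins and contactin, measured 658.2 CPM in WT, against 588.9 and 549.3 CPM in the FGR pair (569.1 ± 28.0). Both FGR libraries were below WT, with a log2 fold change of -0.21 ± 0.10 (adjusted p = 0.294), and it was not called in any of the 9 fits.

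The link proteins, which lock lecticans onto hyaluronan, were rare in every library. Hapln2 (ENSMUSG00000004894.10), which encodes the link protein of nodes of Ranvier, was read 30 times in WT and 62 and 47 times in the FGR pair, or 0.557, 1.07 and 1.03 CPM. Both FGR libraries were above WT. The WT counting interval (0.159 to 0.336 RPKM) overlapped that of FGR replicate 2 (0.319 to 0.577 RPKM) but not that of FGR replicate 1 (0.346 to 0.578 RPKM). The log2 fold change was 0.91 ± 0.37 (adjusted p = 0.207), so the gene did not pass the test at this depth.

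Hapln4 (ENSMUSG00000007594.10), a link protein of nets, was read 101 times in WT and 112 and 76 times in the FGR pair, or 1.88, 1.93 and 1.66 CPM. WT lay between the FGR libraries (log2 fold change -0.06 ± 0.25, adjusted p = 0.935). Hapln1 (ENSMUSG00000021613.8), the widely expressed cartilage and brain link protein, was read 164 times in WT and 167 and 127 times in the FGR pair. That came to 3.05, 2.88 and 2.78 CPM, with overlapping counting intervals (log2 fold change -0.11 ± 0.20, adjusted p = 0.842). Lectican transcripts outnumbered those of the 3 link proteins 118.1-fold per length in WT and 84.8-fold and 89.6-fold in FGR.

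Lectican and link protein genes lie next to each other in the mouse genome, as the RefSeq order of protein-coding genes shows for Ncan and Hapln4, Bcan and Hapln2, Vcan and Hapln1, and Acan and Hapln3. Values for neighbours are given side by side, and the differences between them were not tested. Ncan had a log2 fold change of -0.34 ± 0.10 (SE) beside -0.06 ± 0.25 for Hapln4, Bcan -0.27 ± 0.07 beside 0.91 ± 0.37 for Hapln2, and Vcan 0.09 ± 0.08 beside -0.11 ± 0.20 for Hapln1, and none of these genes passed the test. Hapln3, a link protein gene outside the 10 members, was read 243 times in WT and 162 and 122 times in the FGR pair. Like Acan, it fell in the edgeR fit (log2 fold change -0.72 ± 0.19, adjusted p = 0.0448). Hapln3 was called in 6 of 9 fits and Acan in 7. It is not stated that strand entered the counting, so reads where neighbouring genes meet may belong to either.

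Across the 10 members, 1 fell and 0 rose. Of all 25561 genes tested, 4.25% were called, 2.59% lower and 1.66% higher in FGR. Both FGR libraries lay below WT for 7 members, against 38.2% of all genes tested, and above WT for Hapln2, against 38.5%. The median log2 fold change was -0.16 over the members and 0.01 over all genes tested. Median differences from WT by library were -0.12 in FGR replicate 1 and -0.21 in FGR replicate 2 for the members. At an unadjusted p under 0.05 there were 5 members, Ncan, Acan, Bcan, Tnr and Hapln2, against 18.3% of all genes. Log2 fold changes were -0.95 for Acan and 0.91 for Hapln2, and they ran from -0.34 to 0.09 for the other 8 members.

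Calls among Acan, Ncan, Bcan and Tnr depended on the fit. Over the reported fit and its 8 alternatives, 9 fits in all, Acan was called in 7, Bcan in 5, Ncan in 4 and Tnr in 3, all lower in FGR, and the other members in 0. Hapln2 had no adjusted p in DESeq2 or under the stricter filter, and Hapln4 none in DESeq2. The 8 alternatives called 4.73% of genes with DESeq2 size factors, 5.32% with library totals and 5.74% with every gene that had a count. They called 1.61% among genes at a mean CPM of at least 1, 2.15% with DESeq2, 4.24% with limma-voom, 4.82% with a robust fit and 4.51% without abundant RNA genes. The DESeq2 share is of the 16641 genes to which it gave an adjusted p.

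**Figure D2:**
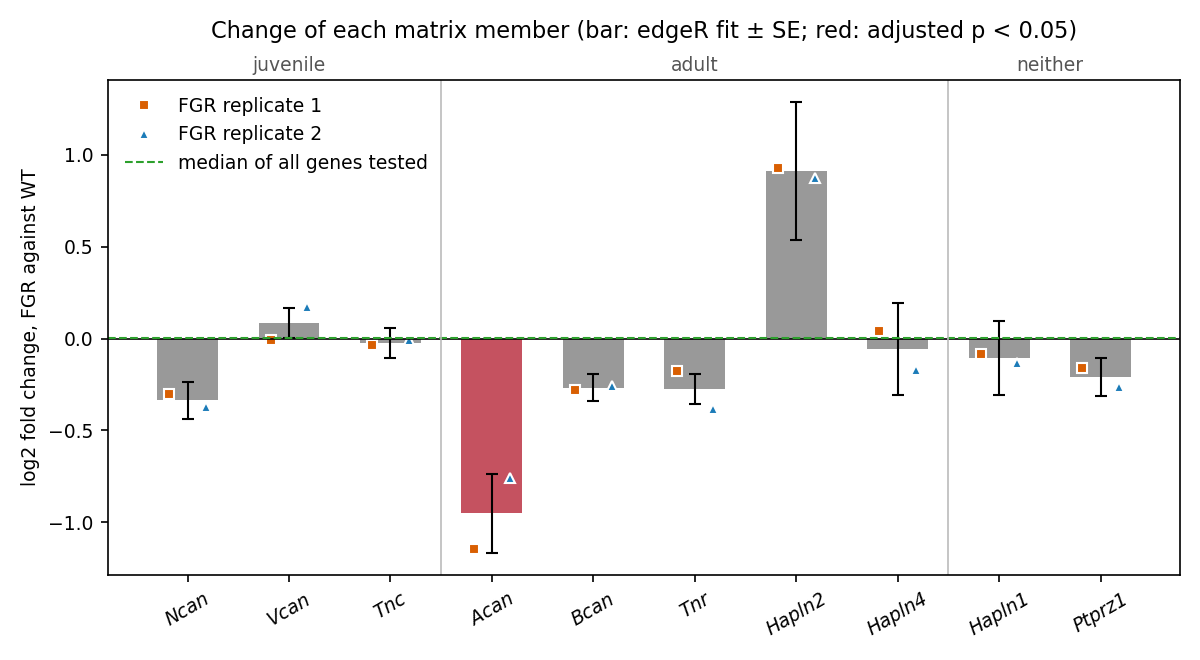
Log2 fold change of each member, FGR against WT, as bars from the edgeR fit with SE, and each FGR library against WT as points. The Acan bar, at -0.95, is the one past an adjusted p of 0.05, and the Hapln2 bar, at 0.91, has the widest SE (0.37).

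The balance between juvenile and adult matrix transcripts was nearly the same in WT and FGR, while both sums were lower in FGR. Juvenile members summed to 138.9 RPKM in WT and to 119.6 and 117.4 RPKM in FGR (118.5 ± 1.61), 85.3% of WT. Adult members summed to 56.5 RPKM in WT and to 47.2 and 46.9 RPKM in FGR (47.1 ± 0.211), 83.3% of WT. Each sum was lower in both FGR libraries by more than the gap between them. The lower juvenile sum came almost wholly from Ncan, which did not pass the test, at 98.4 RPKM in WT and 80.0 and 76.0 RPKM in FGR. Tnc stood at 31.8 RPKM in WT and 31.0 and 31.5 RPKM in FGR, and Vcan at 8.74 RPKM in WT and 8.71 and 9.84 RPKM in FGR.

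Juvenile transcripts exceeded adult ones 2.46-fold in WT and 2.53-fold and 2.50-fold in the FGR pair. The log2 ratio differed by 0.03 between the FGR mean and WT, with an SD of 0.01 in the FGR pair. With 1 library against 2, an exact permutation test cannot go below p = 0.333, so none was run. The difference in log2 ratio was 0.01 without Vcan and 0.07 when counts were not divided by length.

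Shares within the juvenile sum differed between WT and FGR. Ncan made up 70.8% of the juvenile sum in WT and 66.8% and 64.7% in FGR, while Tnc made up 22.9% in WT and 25.9% and 26.9% in FGR, and Vcan 6.29% in WT and 7.28% and 8.39% in FGR. Ncan thus had a smaller share of the juvenile sum in both FGR libraries, beside larger shares of Tnc and Vcan. Bcan made up 84.3% of the adult sum in WT and 83.2% and 85.1% in FGR, on either side of WT. Acan made up 0.994% of the adult sum in WT and 0.537% and 0.705% in FGR, and Hapln2 0.416% in WT and 0.954% and 0.924% in FGR. The adult sum therefore followed Bcan, and the call of Acan concerned under 1% of it. Among the 4 lecticans alone, the share of Ncan was 63.3% in WT and 62.3% and 60.3% in FGR.

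**Figure D3:**
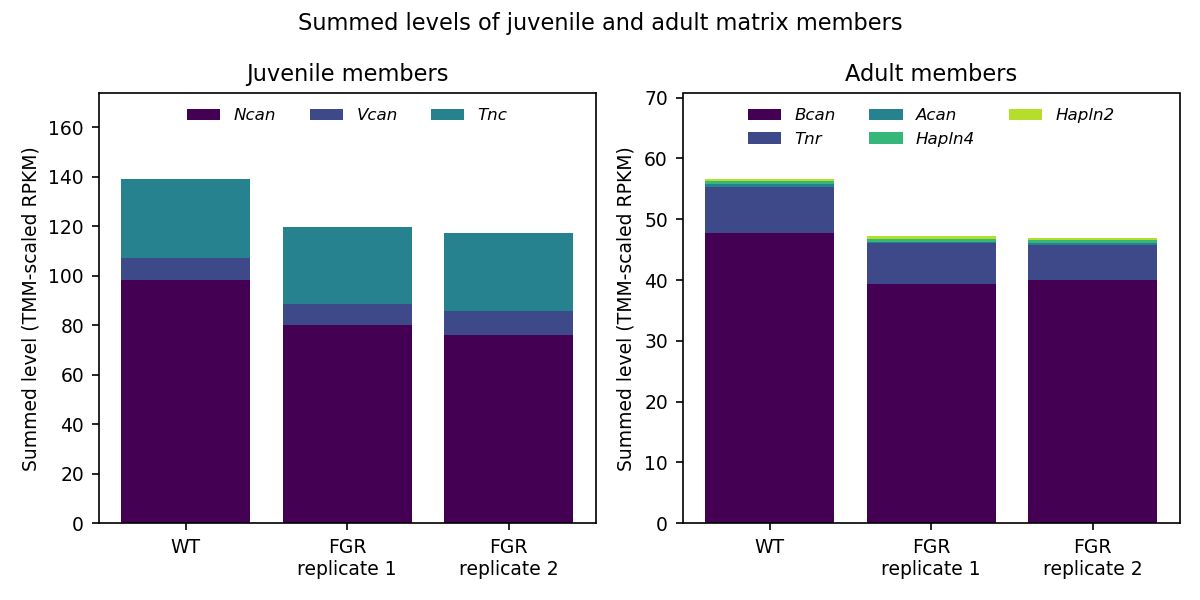
Summed length-scaled levels (TMM-scaled RPKM) of the juvenile members, left, and the adult members, right, stacked by gene in each library. Juvenile sums run from 138.9 in WT to 117.4 in FGR replicate 2 and adult sums from 56.5 to 46.9, and Ncan and Bcan fill most of each bar.

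Genes that make, cut and bind this matrix passed the test in 3 of 71 cases, Tnxb and Hapln3 lower and Tmem2 higher, a share near the 4.25% of all genes tested that were called. Of these 71 genes, 47 were below WT in both FGR libraries and 13 above, against 38.2% and 38.5% of all genes tested. An unadjusted p under 0.05 in the edgeR test was found for 24 of them, against 18.3% of all genes. Cspg4 and Dcn also stand in marker lists below. Among 12 other proteoglycans, link proteins and tenascins, 2 fell and 0 rose. Tnxb, which encodes tenascin-X of connective tissue, was read 311 times in WT and 125 and 126 times in the FGR pair, or 5.78, 2.16 and 2.76 CPM. Both FGR libraries were far below WT, with a log2 fold change of -1.24 ± 0.20 (adjusted p = 0.00272), and all 9 fits called it. Hapln3, given above beside Acan, was not called in DESeq2 (adjusted p = 0.515), limma-voom (0.0568) or the stricter filter (0.0936).

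Of 12 enzymes that build chondroitin chains 0 passed the test, and their log2 fold changes ran from -0.17 to 0.15. Fam20b, the xylose kinase of the linkage region and the most abundant of them, measured 122.6 CPM in WT, against 117.6 and 117.9 CPM in the FGR pair. Of 10 sulphotransferases and epimerases 9 were tested and 0 passed, and Dsel, an epimerase-like gene, measured 40.4 CPM in WT, against 44.5 and 41.2 CPM in the FGR pair. These enzyme lists had medians of -0.06 and -0.08.

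Among 10 genes of hyaluronan synthesis, binding and breakdown, 1 rose and 0 fell. Tmem2, which encodes a cell surface hyaluronidase, measured 49.0 CPM in WT, against 58.3 and 60.6 CPM in the FGR pair (log2 fold change 0.28 ± 0.07, adjusted p = 0.0352). It was called in 5 of 9 fits and lost in DESeq2 (adjusted p = 0.329), limma-voom (0.0654), the stricter filter (0.0898) and with library totals (0.0587).

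Of 13 proteases that cut lecticans and their inhibitors 0 passed, and 9 were lower in both FGR libraries, where 38.2% of all genes tested were (median -0.23). Timp2, a metalloproteinase inhibitor, measured 122.7 CPM in WT, against 129.3 and 120.8 CPM in the FGR pair. Of 15 receptors and partners, such as the receptor phosphatases of chondroitin sulphate and the contactin ligand of Tnr, 0 passed and 13 were lower in both FGR libraries, beside the same 38.2% of all genes (median -0.18). Ncam1, a neural adhesion molecule that binds neurocan, measured 1001 CPM in WT, against 984.7 and 901.7 CPM in the FGR pair.

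**Figure D4:**
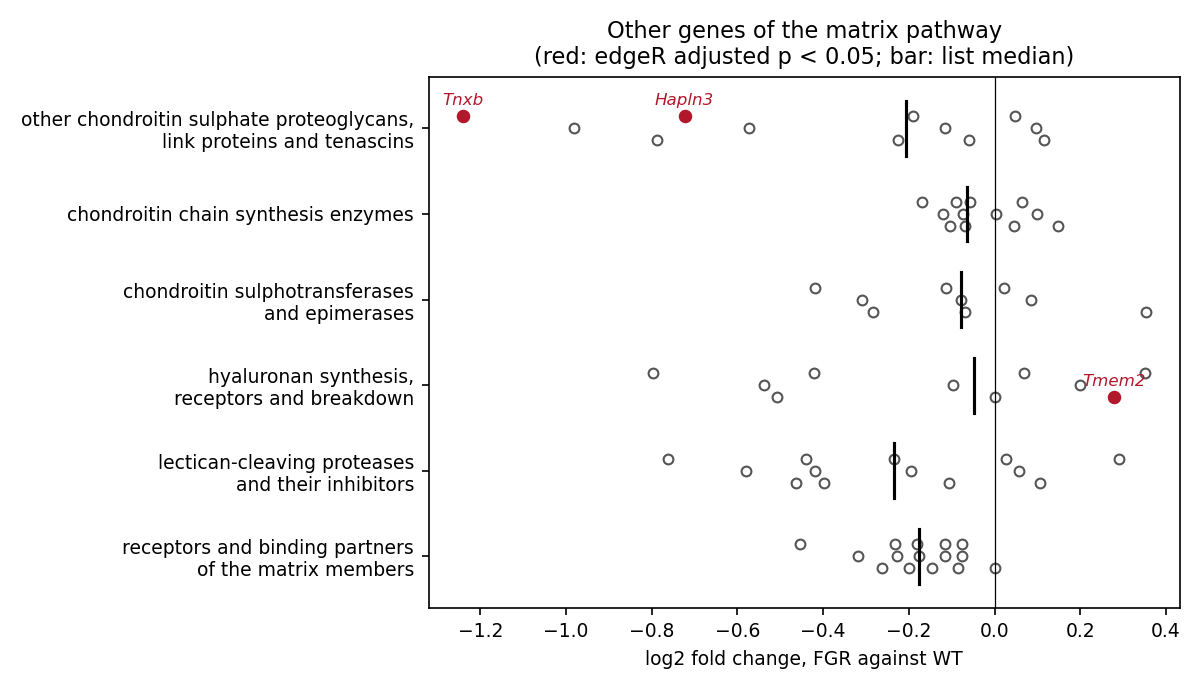
Log2 fold change, FGR against WT, of 71 tested genes that synthesise, modify, cut or bind the matrix, in 6 lists. Filled red points are the 3 genes called, Tnxb at -1.24, Hapln3 at -0.72 and Tmem2 at 0.28, and black bars mark list medians, which lie between -0.23 and -0.05.

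Markers of glial cells, which express many of these matrix genes, had lower summed levels in both FGR libraries, although not every marker was lower. Of all genes tested, 2.59% fell, 1.66% rose and 38.2% were below WT in both FGR libraries. Of 10 astrocyte markers 4 fell, 0 rose and 7 were below WT in both FGR libraries, and their summed CPM was 1238 in WT and 980.6 and 1102 in FGR, 79.2% and 89.0% of WT. Of 8 oligodendrocyte precursor markers 4 fell and all 8 were below WT in both FGR libraries, and the sum was 468.3 CPM in WT and 365.0 and 380.7 CPM in FGR, 77.9% and 81.3% of WT. In comparison, the juvenile members in summed CPM were at 87.1% and 86.4% of WT and the adult members at 84.3% and 81.3%. Of 8 radial glia and progenitor markers 1, Fabp7, fell and 6 were below WT in both FGR libraries. Their sum stood at 79.0% and 83.9% of WT. Fabp7 supplied 483.0 of the 797.0 CPM of this list in WT, so the sum largely followed that gene. Nes and Pax6 exceeded WT in FGR replicate 2 (68.0 against 67.2 CPM and 18.4 against 8.90 CPM) but not in FGR replicate 1.

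The same shares of all genes (2.59% fell, 1.66% rose, 38.2% below WT in both FGR libraries) stand beside the lists that follow. Myelinating oligodendrocyte markers stood at 88.2% and 89.4% of WT, where 1 of 7 tested fell, with Opalin at 0 counts in WT and FGR replicate 1. Leptomeningeal fibroblast markers summed to 450.9 CPM in WT, against 188.0 and 292.3 CPM in the FGR pair, 41.7% and 64.8% of WT, and 6 of 9 fell. Pericyte and smooth muscle markers were at 64.3% of WT in both FGR libraries, where 3 of 8 fell and all 8 were below WT in both. Endothelial markers were at 84.4% and 84.7%, where 4 of 8 fell and 6 were below WT in both FGR libraries. Microglial markers were at 67.5% and 75.4%, where 3 of 8 fell and all 8 were below WT in both FGR libraries. Genes listed for net-bearing parvalbumin interneurons were at 96.4% and 87.7% of WT, with 0 of 6 called. Pvalb itself had 40 counts in WT and 38 and 24 in FGR, so that sum came almost wholly from the other genes. Whether such cells or nets were present was not measured. Regional markers of midbrain, by contrast, were at 139.1% and 122.8% of WT, where 4 of 10 rose. Hypothalamic and ventral forebrain markers were at 14.8% and 16.1% of WT, where 9 of 12 fell, and of 9 hindbrain markers tested 6 rose. The part of cell type and regional makeup in the levels of Acan, Tnxb, Hapln3 and the other members was not tested.

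**Figure D5:**
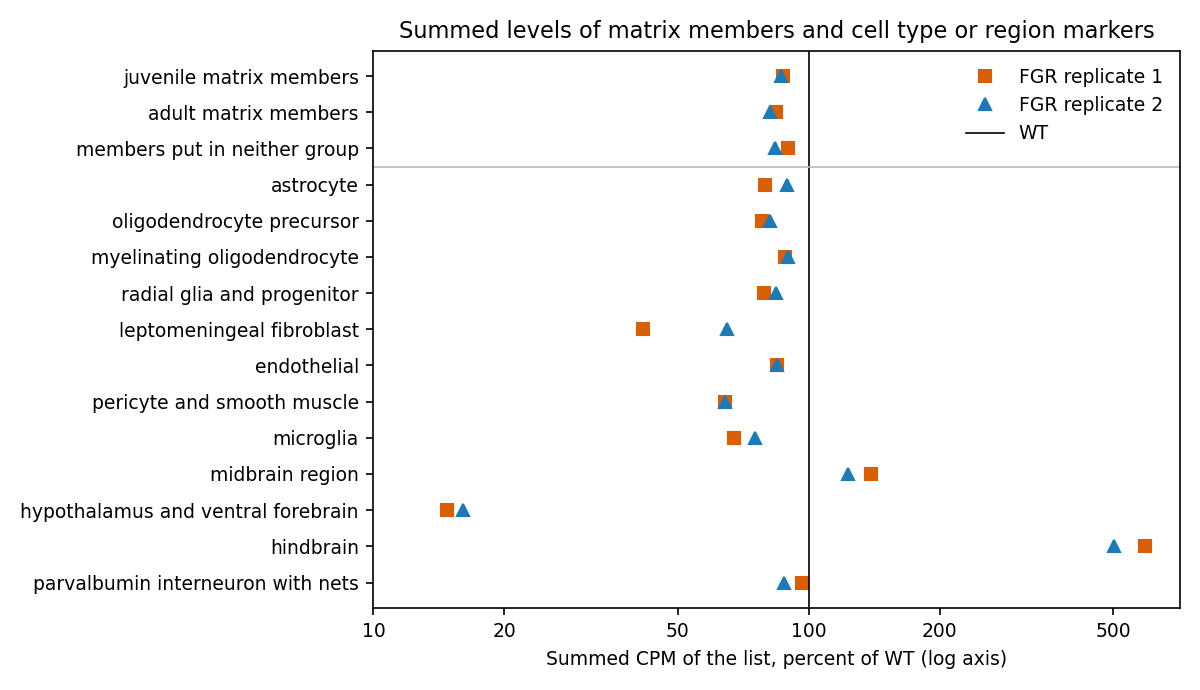
Summed CPM of the matrix groups and of cell type and region markers in each FGR library as a percentage of WT (log axis, WT at 100). Matrix groups lie between 81.3% and 89.5%, and astrocyte and precursor lists between 77.9% and 89.0%. Leptomeningeal, pericyte and microglial lists lie lower, between 41.7% and 75.4%. The midbrain list is at 139.1% and 122.8%, the hypothalamic list far below WT and the hindbrain list far above it. Radial glia, endothelial and myelinating oligodendrocyte lists lie between 79.0% and 89.4%.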

How the data were processed

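Gene counts of 3 midbrain libraries (1 WT, 2 FGR) were analysed. The authors deposited raw read counts per gene with a length. The deposited length equalled the union of annotated exons in GENCODE M21 for 9 of the 10 members. The deposited RPKM equalled the value from count, length and total to within 0.001% and was not used further. The submitters' processing notes list HISAT2. Its version, the build and the counting tool: not given in the sources used here. Per the labels' protocols, total RNA went into TruSeq libraries.

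Counts were tested with edgeR 4.0.16 in R 4.3.3. Genes were filtered with filterByExpr (minimum count 10) and libraries scaled by TMM. FGR was set against WT by the quasi-likelihood F test, two-sided, in 25561 genes. Benjamini-Hochberg adjustment ran over all of them, with a threshold of 0.05. The 1 residual degree of freedom came from the FGR pair, and WT was assumed to vary likewise. The fit moderated each gene's variance with a value shared across genes, so p-values do not rest on this pair alone. The FGR libraries had unlike sex-linked profiles (Xist at 34285 and 78 counts), so they were not repeats of 1 RNA sample. Whether each came from 1 animal or a pool is not given. The spread between them includes that sex-linked difference, and WT had the profile of FGR replicate 1. SE is the absolute log2 fold change over the square root of F. "Rose" and "fell" mean called. Lists are described by counts and medians. Alternatives used DESeq2 1.42.0, limma 3.58.1 (voom), other scalings and filters. The rule for named genes took all members, the called genes of each pathway list or else its most abundant gene, and counts for marker lists. Members and lists were chosen with earlier results of these data known. Intervals are exact 95% Poisson intervals and cover counting error alone.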

Additional observations from a re-analysis of the deposited data

How the results depend on the processing

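No direction of a member's fold change was reversed in the 8 refits with a test, and 63 of 77 such values stayed on the same side of the threshold. The number of genes called was 1087, against 2057 for every gene with a count, 301 at a mean CPM of at least 1 and 357 in DESeq2. Of the calls, 39.0% were higher in FGR, and 24.4% with library totals. The number of members called was 1, against 3 with library totals, limma-voom, a robust fit or without abundant RNA genes, 4 with every gene that had a count, and 0 at a mean CPM of at least 1. DESeq2 also called 1, Ncan in place of Acan, and gave no adjusted p for Hapln2 and Hapln4. The juvenile to adult log2 difference of 0.03 became 0.0106 without Vcan and 0.0676 with counts not divided by length. The causes were not tested. Timp2 changed sign with library totals (log2 fold change -0.0122). Leaving out an FGR library left no residual degree of freedom, so those values carry no test. Vcan and Hapln4 then differed in sign between the FGR libraries (Vcan 0.16 and -0.01, Hapln4 -0.18 and 0.04, without FGR replicates 1 and 2 in turn). No paired analysis was possible, because WT is a single library and no label pairs it with an FGR library. Depth limits Hapln2, Hapln4, Hapln1 and Acan, which had 226 counts or fewer in each library.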
